A study of Mus musculus with 6 samples.

Results

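The 9 genes described here belong to the program of interleukin-17-producing and innate-like lymphocytes. They are Il17a, the transcription factor genes Rora, Ahr, Sox13 and Sox4, and Kcnk1, Serpinb1a, Tmem176a and Tmem176b. They were chosen by gene symbol with the fold changes of these same arrays in view, so their own differences between genotypes were selected on measured values and are given as a description, with no test. The platform annotation names them on 20 of the 22626 probe sets, and they are 9 of 12393 genes with a probe set of their own. CD4+CD25+ regulatory T cells (Tregs) were isolated with magnetic beads, and their RNA was hybridised to 6 Affymetrix Mouse430A arrays, with 3 samples per genotype. The control Tregs (WT) came from wild-type C57BL6 mice. The HDAC11-/- Tregs came from fl-HDAC11/Foxp3cre mice, in which floxed Hdac11 is removed in cells that express Foxp3, the defining transcription factor of Tregs. The label of the control mice names no Cre, so the Cre transgene and the deletion cannot be told apart, and no label gives an age or a sex. The series describes the 3 samples of a genotype as independent but does not tie them to separate mice, so p-values measure the spread between these samples. The comparison asked how gene expression in Tregs differed once HDAC11 was deleted.

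Type 17 lymphocytes make IL-17A in response to IL-1, IL-6 and IL-23, and include Th17 cells, a subset of gamma-delta T cells and group 3 innate lymphoid cells. Their program is set by nuclear receptors of the ROR family, RORgt and RORa, and is tuned by Ahr, a receptor for small aromatic ligands from diet, microbes and pollutants. Innate-like lymphocytes share parts of this program with the help of SOX family factors, and some Tregs, chiefly at mucosal surfaces, also take up parts of it.

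Tmem176a and Tmem176b, which encode related ion channels of intracellular membranes found in RORgt-expressing cells, are neighbours that point away from each other. In the RefSeq annotation their start sites on mouse GRCm38.p6 chromosome 6 lie as close as 109 bases apart on opposite strands. The windows from 250 bases before to 50 bases after those starts, chr6:48841233-48841532 (plus strand) for Tmem176a and chr6:48841325-48841624 (minus strand) for Tmem176b, are shown because both genes were lower in HDAC11-/- Tregs and because the windows share 208 bases. Capitals mark the shared bases, which read as reverse complements of each other, and each line runs 5' to 3' on its own gene's strand.
Tmem176a: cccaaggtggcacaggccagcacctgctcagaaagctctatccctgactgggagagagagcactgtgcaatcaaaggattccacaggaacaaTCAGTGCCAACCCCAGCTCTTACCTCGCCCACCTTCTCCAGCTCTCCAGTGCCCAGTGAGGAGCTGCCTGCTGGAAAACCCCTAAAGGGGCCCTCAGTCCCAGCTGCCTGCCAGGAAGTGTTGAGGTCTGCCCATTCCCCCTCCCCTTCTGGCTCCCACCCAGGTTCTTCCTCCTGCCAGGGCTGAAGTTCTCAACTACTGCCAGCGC
Tmem176b: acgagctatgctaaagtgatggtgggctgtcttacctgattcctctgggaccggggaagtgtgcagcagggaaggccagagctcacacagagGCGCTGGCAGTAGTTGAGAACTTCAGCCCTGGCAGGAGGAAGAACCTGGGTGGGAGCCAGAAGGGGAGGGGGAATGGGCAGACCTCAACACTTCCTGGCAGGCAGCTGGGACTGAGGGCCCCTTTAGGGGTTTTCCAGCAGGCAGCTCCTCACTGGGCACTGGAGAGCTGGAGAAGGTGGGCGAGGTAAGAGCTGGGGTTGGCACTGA

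Windows of 7 of the 9 genes were used, 10 in all, with 2 for Tmem176a and 3 for Tmem176b, and those of Serpinb1a and Ahr were not analysed here. The windows were searched on both strands for the ROR half-site AGGTCA, the Ahr core GCGTG, the AP-1 element TGANTCA and the SOX core ACAAAG. These occurred in 16.3%, 32.4%, 7.81% and 18.7% of all 32851 windows, and in 2, 2, 1 and 0 of the 10 windows of these genes. The 7 windows of Kcnk1, Sox13, Tmem176a and Tmem176b, all lower in HDAC11-/- Tregs, held none of these letters. The windows of Il17a (chr1:20730655-20730954, plus strand) and Sox4 (chr13:28953650-28953949, minus strand) are shown because they hold the ROR half-site. It is only a part of the element of ROR proteins such as RORa, and the whole element was not searched. Capitals mark the matches. In Il17a they are an AP-1 element at position -244 from the start site and a ROR half-site, read on the other strand, at -120. In Sox4 they are a ROR half-site at -162 and an Ahr core, read on the other strand, at -137.
Il17a: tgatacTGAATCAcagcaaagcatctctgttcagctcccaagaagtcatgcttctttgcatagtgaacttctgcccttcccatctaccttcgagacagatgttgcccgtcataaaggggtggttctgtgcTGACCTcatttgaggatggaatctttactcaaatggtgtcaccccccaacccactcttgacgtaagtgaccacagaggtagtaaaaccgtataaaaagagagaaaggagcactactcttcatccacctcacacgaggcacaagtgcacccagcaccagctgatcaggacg
Sox4: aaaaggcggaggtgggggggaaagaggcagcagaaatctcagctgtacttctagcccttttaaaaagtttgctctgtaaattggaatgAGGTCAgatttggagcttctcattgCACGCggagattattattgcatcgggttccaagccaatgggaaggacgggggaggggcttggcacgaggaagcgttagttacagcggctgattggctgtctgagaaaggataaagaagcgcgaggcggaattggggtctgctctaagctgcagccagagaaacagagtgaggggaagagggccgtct
The Rora window held an Ahr core at -167. The matches did not overlap, and a match of letters does not show that a factor binds there.

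Hdac11 itself was measured by a pair of probe sets. The brighter read 6.31, 6.37 and 6.53 in WT and 6.36, 6.28 and 6.22 in HDAC11-/- Tregs (log2 fold change -0.12, SE 0.07, limma with Benjamini-Hochberg adjusted p = 0.222), and the dimmer read 5.69, 5.49 and 5.68 against 5.35, 5.41 and 5.79 (-0.10, SE 0.12, adjusted p = 0.532). The positions of these probes relative to the deleted exons were not known here, so these values do not check the deletion. Foxp3, at 3.68 ± 0.13 and 3.73 ± 0.16 (SD, n = 3 each), was no brighter than the bacterial control probe sets, whose highest value per array was 5.27 to 5.48 in WT and 5.06 to 5.28 in HDAC11-/- arrays, so the arrays give no usable level of this defining gene. Of 9 measured markers of T cells and Tregs, Foxp3 included, limma called 0 different, since none reached 1.5-fold. By adjusted p alone 2 were lower, Cd4 (-0.32) and Ikzf2 (-0.35), and 1 was higher, Ctla4 (0.50). The counts at an unadjusted p under 0.05 were the same. Arrays of 1 genotype correlated at 0.9969 to 0.9987 and arrays of different genotypes at 0.9852 to 0.9878. A call below means an adjusted p under 0.05 in limma, with Benjamini-Hochberg adjustment over all 22626 probe sets, and at least a 1.5-fold difference, and a gene is read by its brightest probe set, meaning the one with the highest mean of all 6 arrays.

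Of the 9 genes, 5 (Kcnk1, Tmem176a, Serpinb1a, Tmem176b and Sox13) were lower in HDAC11-/- Tregs by 2.04- to 3.95-fold, while Sox4, Rora, Ahr and Il17a lay within 1.5-fold of WT. By that call the brightest probe set was lower for 5 of the 9 genes, beside 3.72% of all 12393 genes, and higher for 0, beside 3.46%. Reading a gene by any of its probe sets also gave 5 of 9, beside 6.66% of all genes. Over probe sets, 8 of 20 were lower, beside 5.03% of all probe sets, and 0 were higher, beside 3.87%. Since the genes were chosen on these differences, nothing is read from those counts. The median log2 fold change of the 9 genes was -1.03, and that of all genes was -0.04. Of the 20 probe sets, 13 had all HDAC11-/- arrays below all WT arrays, 1 had them above and 6 overlapped. The share of all probe sets separated in this way is not given here. By adjusted p alone (limma), 5070 of all probe sets were lower and 5254 higher, so nothing is read from the 13. Of the 20 probe sets, 12 lay above the highest bacterial control on all 6 arrays and 2 on none.

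**Figure D1:**
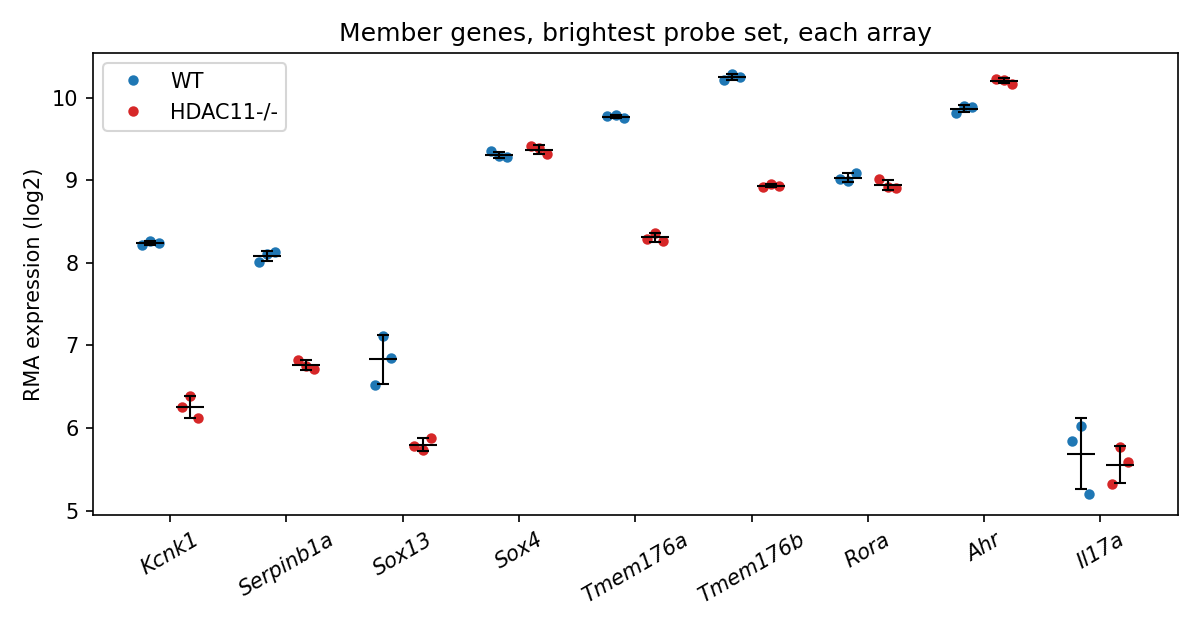
RMA expression (log2, y axis) of the brightest probe set of each of the 9 genes (x axis) on each of 3 WT and 3 HDAC11-/- arrays, with bars for the mean and SD. The arrays of the genotypes lie apart for Kcnk1, Serpinb1a, Sox13, Tmem176a, Tmem176b and, in the other direction, Ahr, and they overlap for Sox4, Rora and Il17a.

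Il17a, the cytokine that names the program, read 5.85, 6.02 and 5.20 in WT and 5.32, 5.77 and 5.59 in HDAC11-/- Tregs on its single probe set. The arrays of the genotypes overlapped, and 5 of the 6 stood above the highest bacterial control of their array, WT replicate 3 being the exception. The means were 5.69 ± 0.43 and 5.56 ± 0.23 (SD, n = 3 each), and the log2 fold change of -0.13 (SE 0.22) was smaller than the spread between WT arrays. Without WT replicate 2 it was 0.03, so no direction can be given for this cytokine.

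Rora encodes RORa, which acts with RORgt in type 17 cells and alone in group 2 innate lymphoid cells. Its brightest probe set read 9.01, 8.99 and 9.09 in WT and 9.02, 8.92 and 8.90 in HDAC11-/- Tregs. The genotypes overlapped, with a log2 fold change of -0.08 (SE 0.05). A second probe set gave 0.19 (SE 0.10), again with overlap, and the last was no brighter than the bacterial controls on any array. Ahr, whose protein promotes IL-22 and IL-17 production, was the only one of the 9 genes whose brightest probe set read higher on every HDAC11-/- array, at 10.23, 10.22 and 10.17 against 9.81, 9.90 and 9.88 in WT. Its log2 fold change of 0.34 (SE 0.05) lay below the 1.5-fold threshold. The second Ahr probe set was dimmer and pointed the other way, at 5.52, 5.06 and 5.19 in WT against 4.86, 4.66 and 4.87 in HDAC11-/- arrays. Only 1 of the 6 arrays of that probe set, from WT, stood above the bacterial controls. No fold is given for it, and its lower values set no firm direction against the brighter probe set.

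Sox13 and Sox4 encode high-mobility-group factors that are needed for gamma-delta T cells to mature into IL-17 producers. Sox13 read 6.53, 7.12 and 6.85 in WT and 5.79, 5.73 and 5.88 in HDAC11-/- Tregs on its single probe set. Every HDAC11-/- array lay below every WT array, although the WT arrays spread over 0.59. The means were 6.83 ± 0.30 and 5.80 ± 0.08 (SD, n = 3 each), a log2 fold change of -1.03 (SE 0.14) or a 2.04-fold lower level. Sox4 did not show this on its brightest probe set, which read 9.35, 9.29 and 9.29 in WT and 9.42, 9.39 and 9.31 in HDAC11-/- Tregs, so the genotypes overlapped and the log2 fold change was 0.06 (SE 0.05). The 5 dimmer Sox4 probe sets had log2 fold changes of -0.49 to -0.27, and on 4 of them every HDAC11-/- array lay below every WT array. None of the 6 was called. The brightest probe set gave no clear direction, while the 5 dimmer ones read lower in HDAC11-/- Tregs on the deposited scale. Some of these lay close to the bacterial controls, standing above them on only 2, 3 and 5 of the 6 arrays. The cre control is 3 control probe sets of the array, not the mouse label Foxp3cre. With the arrays scaled on it, the log2 fold changes of the 5 dimmer Sox4 probe sets ran from -0.01 to 0.21.

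Tmem176b was read by a single probe set, at 10.22, 10.29 and 10.26 in WT and 8.92, 8.96 and 8.93 in HDAC11-/- Tregs. The means of 10.25 ± 0.03 and 8.94 ± 0.02 (SD, n = 3 each) differed by a log2 fold change of -1.32 (SE 0.04), a 2.49-fold lower level. Tmem176a, whose start-site window is printed above beside that of Tmem176b, was lower on both of its probe sets. The brighter read 9.78, 9.79 and 9.75 against 8.29, 8.37 and 8.27 (-1.46, SE 0.05, 2.76-fold lower), and the other read 9.02, 8.85 and 8.92 against 7.39, 7.35 and 7.43 (-1.54, SE 0.06, 2.91-fold lower). The gaps between genotypes exceeded the spread within a genotype on all 3 probe sets of the pair.

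Kcnk1 encodes TWIK-1, a potassium channel that helps to set the resting membrane potential. It was the lowest of the 9 genes relative to WT, at 8.21, 8.26 and 8.24 in WT against 6.26, 6.39 and 6.12 in HDAC11-/- Tregs. The log2 fold change was -1.98 (SE 0.07), a 3.95-fold lower level that placed Kcnk1 at rank 14 among the falls of all 12393 genes. Its dimmer probe set read 6.32, 6.51 and 6.22 against 5.20, 5.35 and 5.36, a log2 fold change of -1.05 (SE 0.09), with 5 of 6 arrays above the bacterial controls. Both probe sets had the same direction, and the size differed. Serpinb1a, an inhibitor of neutrophil serine proteases that is also made by IL-17-producing T cells, read 8.01, 8.11 and 8.13 in WT against 6.82, 6.75 and 6.71 in HDAC11-/- Tregs. The log2 fold change was -1.32 (SE 0.06), 2.49-fold lower, at rank 52. Its other probe set, of a kind that may match several transcripts, was no brighter than the bacterial controls on any array. It is 1 of the 8 probe sets counted as lower, and no fold is given for it. Tmem176a, Tmem176b and Sox13 stood at ranks 37, 54 and 104.

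**Figure D2:**
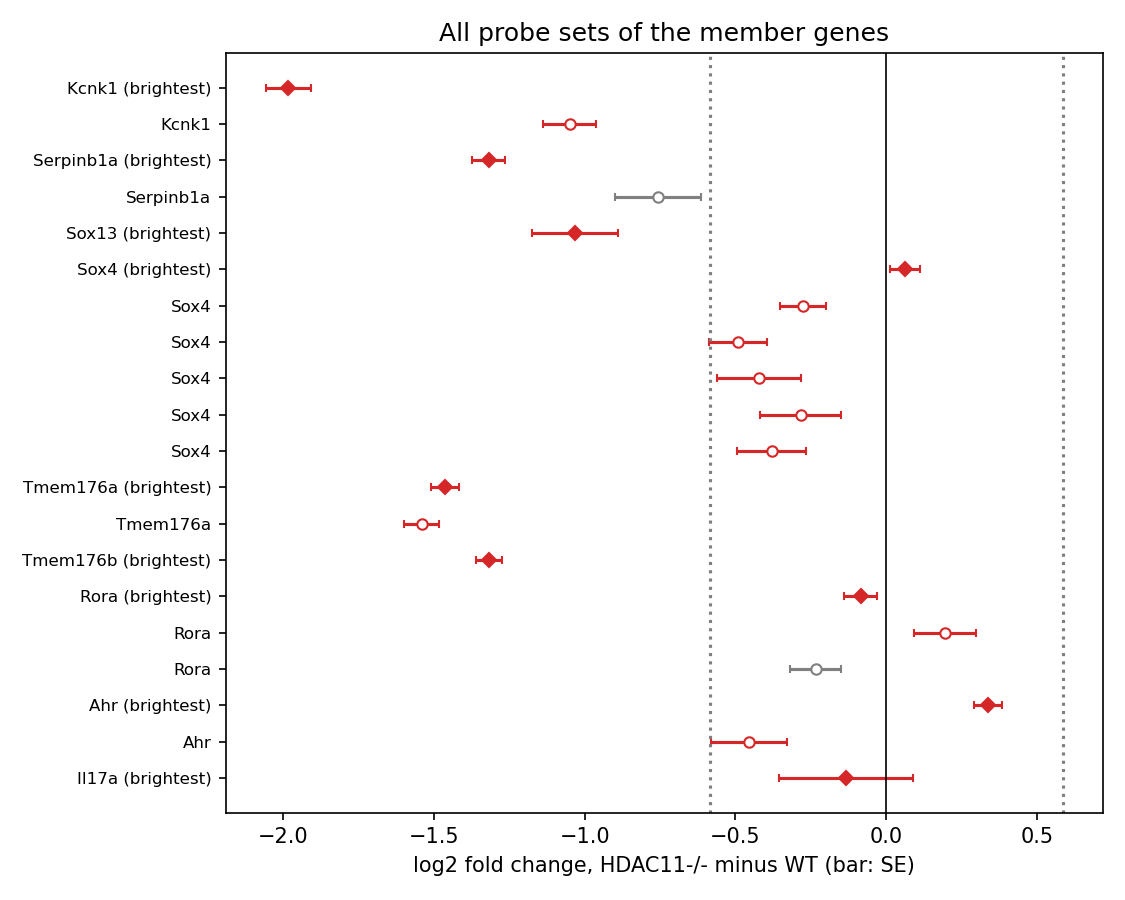
Log2 fold change of HDAC11-/- minus WT (x axis, bars show the SE) for all 20 probe sets of the 9 genes (y axis), filled for the brightest of each gene and grey for the 2 that were no brighter than the bacterial controls on any array. Dotted lines mark 1.5-fold, and the 8 points beyond the lower line belong to Kcnk1, Serpinb1a, Sox13, Tmem176a and Tmem176b.

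Several other genes of the type 17 program were lower too, and none was called higher. The list was drawn up with earlier results of these data known, so its counts and share are a description and no test. Of 24 listed genes 19 were measured, and limma called 4 lower (Blk, Il1r1, Ccr6 and Maf), 0 higher and 15 neither. By adjusted p alone 10 were lower and 6 higher (11 and 6 at an unadjusted p under 0.05). The median log2 fold change of the list was -0.35, beside -0.04 for all genes, and 21.05% of it was called lower, beside 3.72% of all genes. Blk, a Src family kinase of B cells and of IL-17-producing gamma-delta T cells, fell from 9.36, 9.36 and 9.31 in WT to 6.66, 6.96 and 6.97 (log2 difference -2.48, SE 0.09, limma adjusted p = 8.64e-06). Il1r1, the receptor through which IL-1 acts, read 7.82, 7.70 and 7.64 against 6.35, 6.47 and 6.44 (-1.30, SE 0.06, adjusted p = 2.76e-05). Ccr6, the chemokine receptor that brings type 17 cells to epithelia, read 10.46, 10.27 and 10.26 against 9.36, 9.23 and 9.20, a fall that again left no overlap (-1.07, SE 0.08, adjusted p = 0.000120). Maf, a factor needed for IL-17 production by several lineages, read 6.42, 6.48 and 6.53 against 5.54, 5.79 and 5.83 (-0.76, SE 0.09, adjusted p = 0.000717). Counted by any probe set, Il17re and Runx1 joined these 4. With the arrays scaled on the cre control probe sets of the array, 2 genes of the list were called lower.

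Receptors for IL-18, IL-25 and stem cell factor were among the innate-like genes that fell. Of 28 listed genes 22 were measured, of which limma called 5 lower (Il18r1, Kit, Il17rb, Klrb1f and Il18rap), 0 higher and 17 neither. By adjusted p alone 11 were lower and 3 higher (13 and 4 at an unadjusted p under 0.05), and the median log2 fold change was -0.24. The share called lower was 22.73%, beside 3.72% of all genes, and with the arrays scaled on the cre control limma called 0 genes of the list lower. This list too was drawn up with earlier results of these data known, so the share is a description and no test. Il18r1, a chain of the IL-18 receptor, fell from 11.44, 11.52 and 11.51 to 10.39, 10.47 and 10.42 (-1.07, SE 0.05, adjusted p = 1.95e-05). Kit, the stem cell factor receptor also carried by innate lymphoid cells, read 7.55, 7.72 and 7.56 against 6.68, 6.69 and 6.86 (-0.86, SE 0.07, adjusted p = 0.000254). Il17rb, a chain of the IL-25 receptor, read 8.16, 8.07 and 8.35 against 7.44, 7.34 and 7.36, with every HDAC11-/- array below every WT array (-0.81, SE 0.08, adjusted p = 0.000379). Klrb1f, a receptor of the NKR-P1 family, read 6.67, 6.49 and 6.53 against 5.94, 5.73 and 5.48 (-0.85, SE 0.12, adjusted p = 0.00164). Il18rap, the other chain of the IL-18 receptor, was the fifth (-0.73, SE 0.13, adjusted p = 0.00414). Zbtb16, which encodes the innate-like T cell factor PLZF, had a log2 fold change of -0.38, below the fold threshold. Nfil3 went the other way, also below that threshold (0.54, SE 0.06, adjusted p = 0.000621), with every HDAC11-/- array above every WT array. By any probe set 7 genes of the list were lower, Id2 and Il7r being the others, although the brightest Id2 probe set read higher (0.33).

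Neither the partners and targets of Ahr nor the genes of the circadian clock, in which RORa takes part, were called. Of 10 listed Ahr genes 7 were measured, and limma called 0 (0 lower by SAM). Without the fold threshold 1 was lower and 0 higher, by adjusted p and by unadjusted p under 0.05 alike. Of all 12393 genes 3.72% were called lower and 3.46% higher, and by adjusted p alone 2869 were lower and 2837 higher. In the Ahr list 3 genes were no brighter than the bacterial controls on any array, and the median log2 fold change was 0.10. Cyp1a2, a cytochrome P450 gene, had the smallest limma adjusted p of the list, 0.0113. It read 5.08, 5.28 and 5.38 in WT against 4.91, 4.86 and 4.67 in HDAC11-/- Tregs. Only 1 array, from WT, stood above those controls, so no fold is given for Cyp1a2. Of 9 clock genes limma called 0 (0 lower by SAM), with a median of 0.08. Without the fold threshold 3 were lower and 4 higher, by adjusted p and by unadjusted p under 0.05 alike. Beside the small shares of all genes, nothing is read from 0 calls in either of these short lists. Per1, a repressor of the clock, read 9.16, 9.20 and 9.23 in WT and 9.55, 9.56 and 9.50 in HDAC11-/- Tregs (0.34, SE 0.05, adjusted p = 0.00136), below the fold threshold.

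None of the relatives of the 9 genes by symbol was called. Among 38 other measured genes of the Sox, Kcnk, Serpinb and Il17 ligand families limma called 0 (0 lower by SAM), and their median log2 fold change was -0.05. Of all genes 3.72% were called lower and 3.46% higher, so nothing is read from 0 calls among 38. By adjusted p alone 3 of the 38 were lower and 4 higher, beside 2869 and 2837 of all 12393 genes. At an unadjusted p under 0.05, 6 of the 38 were lower and 4 higher. In 22 of the 38 neither genotype was brighter than the bacterial controls, and no fold is given for those. The smallest adjusted p in each family belonged to Sox10 (-0.34, adjusted p = 0.0134), Kcnk5 (0.24, adjusted p = 0.0198), Serpinb1b (adjusted p = 0.00474, no brighter than the bacterial controls in either genotype) and Il17b (0.11, adjusted p = 0.355).

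**Figure D3:**
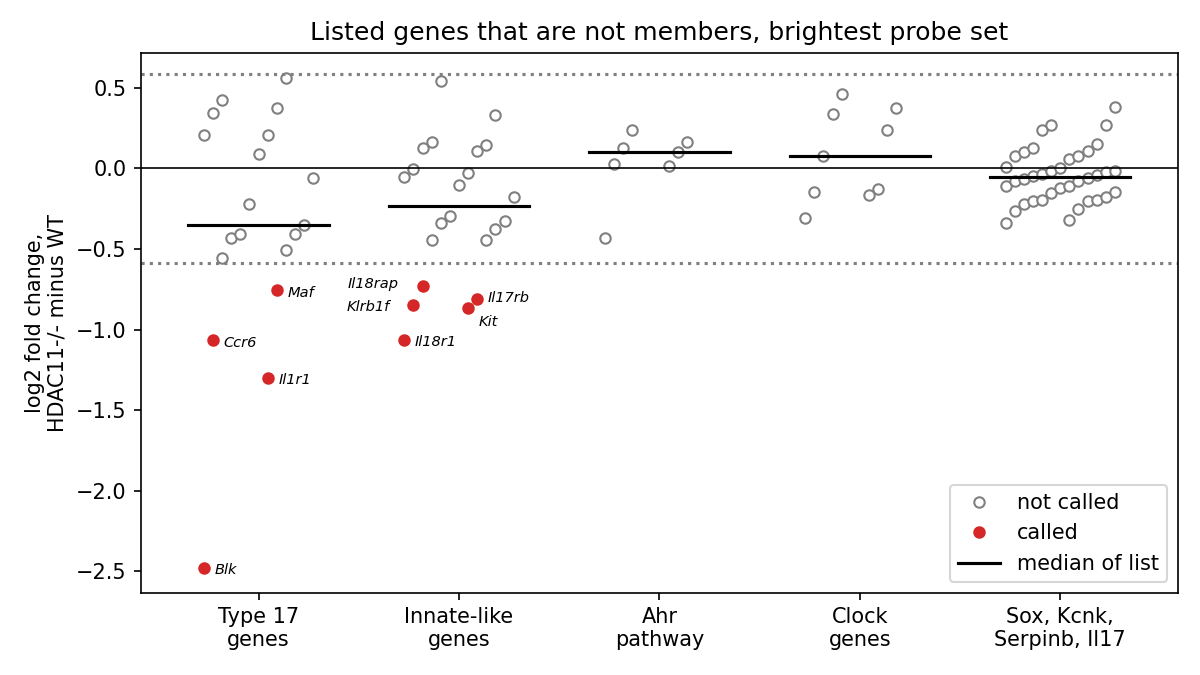
Log2 fold change of HDAC11-/- minus WT (y axis) of every measured gene, by brightest probe set, in 5 gene lists (x axis) that hold none of the 9 genes. Filled points were called by limma, bars are list medians and dotted lines mark 1.5-fold, and the called genes lie in the type 17 list (4) and the innate-like list (5), all lower.

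Markers of other lymphocytes and of antigen-presenting cells moved with genotype as well. In bulk samples fewer cells of a type and less RNA per cell cannot be told apart. The counts of each list stand beside 3.72% of all 12393 genes called lower and 3.46% called higher. Of 9 listed gamma-delta T cell genes 2 were measured, and both were called lower. Trgv4, a variable segment of the gamma chain, read 10.59, 10.60 and 10.62 in WT and 9.23, 9.13 and 9.27 in HDAC11-/- Tregs (log2 difference -1.39, SE 0.05, limma adjusted p = 1.00e-05), and Trgv1 differed by -0.74 on the same scale (SE 0.07, adjusted p = 0.000292). The summed linear level of the pair was 2090 to 2145 on WT and 877 to 967 on HDAC11-/- arrays. Kcnk1, Serpinb1a, Sox13, Tmem176a and Tmem176b were also lower on HDAC11-/- arrays. They were chosen with that fall in view, so no link to this list is read from it. B cell markers were lower for 4 of 9 (755 to 794 against 478 to 496), among them Ms4a1 (-1.84) and Cd79a (-0.75), with 4 of the 9 no brighter than the bacterial controls on any array. In the dendritic cell list (8470 to 8571 against 5416 to 5953) 4 of 9 were called lower, H2-Aa (-1.60), H2-Ab1 (-1.43), H2-Eb1 (-1.22) and Cd74 (-0.79), which act in class II antigen presentation and are also expressed by B cells. The other 5, Itgax (-0.39), Zbtb46 (-0.26), Xcr1, Flt3 (0.11) and Ccr7 (0.14), were not called, and Xcr1 was no brighter than the bacterial controls on any array. In the list of NK and CD8 T cell markers (1958 to 2024 against 1594 to 1728) 2 of 8 were called lower, Fcer1g (-1.32) and Ncr1 (-1.04). The CD8 genes of that list were not called lower, with log2 fold changes of -0.04 for Cd8a, whose arrays overlapped, and 0.42 for Cd8b1, where every HDAC11-/- array lay above every WT array. In the macrophage and monocyte list (313 to 344 against 417 to 463) 4 of 9 were called higher, Vcam1 (1.35), C1qa (at least 1.16-fold), C1qb and C1qc. Of these C1qb was no brighter than the bacterial controls on any array, as were Adgre1 and Cd14, and Csf1r differed by -0.02. In the neutrophil list (203 to 222 against 298 to 316) 2 of 8 were called higher, S100a8 (at least 1.44-fold) and S100a9 (at least 1.25-fold). Csf3r, Cxcr2 and Mpo, 3 others of that list, were no brighter than the bacterial controls on any array, and their measured values were lower at an unadjusted p under 0.05 with none passing the adjustment. The T cell and Treg markers summed to 29260 to 30390 on WT and 31224 to 32095 on HDAC11-/- arrays. Levels of 0 do not occur on this scale. The part of these cells in the differences of the 9 genes was not tested.

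**Figure D4:**
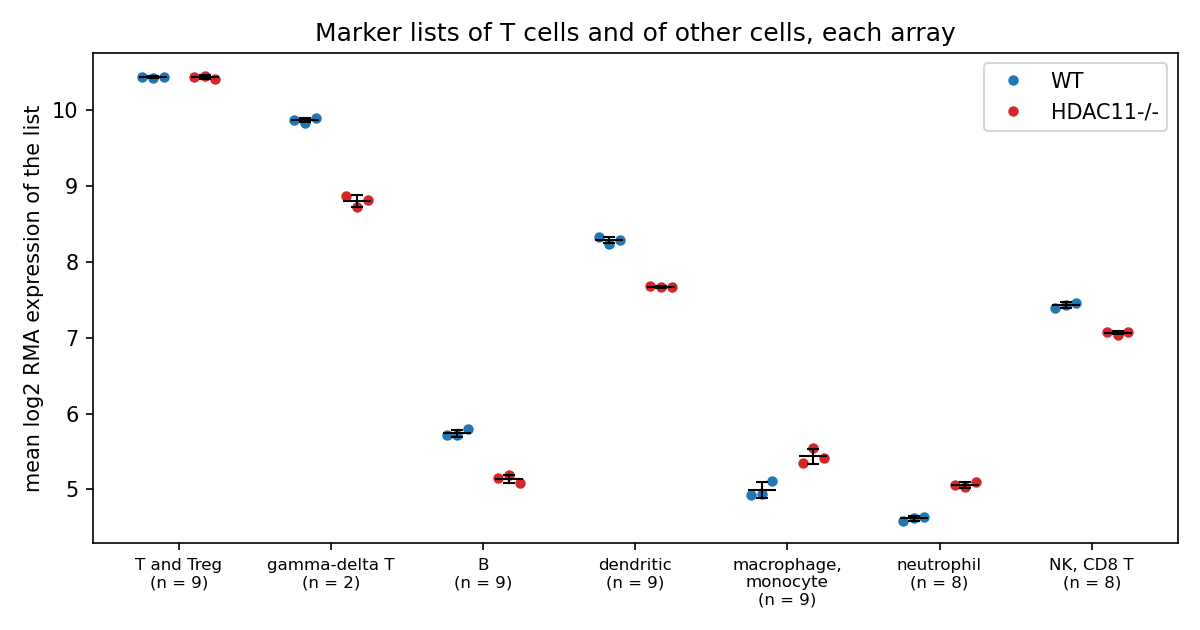
Mean log2 RMA expression (y axis) over the measured markers of T cells and Tregs and of 6 other cell types (x axis, n is the number of genes) on each of 3 WT and 3 HDAC11-/- arrays, with bars for the mean and SD. The T cell and Treg mean lies at 10.4 in both genotypes, the means of the gamma-delta T, B, dendritic and NK or CD8 T lists are lower on every HDAC11-/- array and those of the macrophage and neutrophil lists are higher, although single genes of these lists, such as Cd8b1 (0.42), Ccr7 (0.14) and Csf3r, had a difference of the opposite sign without being called.

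Over the 6 arrays the genes whose pattern was most like that of Tmem176b were Fam193b (Pearson r = 0.9998), Ogt (0.9997) and Luc7l3 (0.9996), outside the 9 genes. Among the other 8 genes the order was Tmem176a (0.9992), Serpinb1a (0.998), Kcnk1 (0.998) and Sox13 (0.954), then Rora (0.659), Il17a (0.238), Sox4 (-0.65) and Ahr (-0.98). These values are a description over 6 points that fall into 2 genotypes, and 1371 of 12392 genes had an r above 0.95.

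The arrays can be scaled in other ways, which moved small differences across 0. Scaling on 12 reference genes shifted the median of all probe sets by -0.11 (log2) and gave 1701 lower and 563 higher probe sets, against 1138 and 876 as deposited. Scaling on the cre control shifted it by 0.48 and gave 331 and 7310, and on the bacterial controls by 0.02, with 1053 and 979. Over all alternatives the log2 fold change of the brightest probe set ran from -2.10 to -1.50 for Kcnk1, -1.58 to -0.98 for Tmem176a, -1.43 to -0.84 for Tmem176b, -1.43 to -0.84 for Serpinb1a and -1.18 to -0.55 for Sox13, all below 0. It ran from 0.22 to 0.82 for Ahr, and it crossed 0 for Sox4 (-0.05 to 0.54), Rora (-0.20 to 0.40) and Il17a (-0.38 to 0.35). Under the cre scale, added after the data were seen, Sox13 no longer reached 1.5-fold and Ahr did.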

How the data were processed

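The authors amplified total RNA of CD4+CD25+ Tregs, labelled it with biotin, hybridised it to Mouse430A arrays and normalized the arrays by RMA. The log2 values that they deposited, 1 for each probe set on each array, were used unchanged (array medians 6.74 to 6.77). Of 22671 probe sets, 45 controls were left out, and 20380 of the 22626 tested carry 1 gene symbol in the platform annotation. Groups came from the sample labels. limma 3.58.1 in R 4.3.3 (lmFit, eBayes) was fitted with genotype as the only term, tested on simulated data, with p-values adjusted by Benjamini-Hochberg across the 22626. No filter was applied to dim probe sets, and a group whose arrays all lay at or below the highest of 27 bacterial control probe sets has only a bound. Among WT arrays the median SD was 0.09 and among HDAC11-/- arrays it was 0.07, and 3 arrays per group limit the precision. The 9 genes and all gene lists were chosen with earlier results of these data known. All 9 genes are named, with up to 4 called genes per list and direction (3 for markers), else the one with the smallest adjusted p. Zbtb16, Nfil3, Nfkbiz, Il18rap, Il17re, Runx1, Id2, Il7r and the further markers were named after their values were seen. Alternatives were SAM with all 20 labelings, a robust prior with an intensity trend, weighting of arrays, the replicate number as a block, other scalings, thresholds and gene summaries, a filter on dim probe sets, and leaving out each array. Promoter windows are RefSeq's. Figures were drawn with matplotlib 3.10.9.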

Additional observations from a re-analysis of the deposited data

How the results depend on the processing

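Without a fold threshold 5070 probe sets were lower and 5254 higher, with 10 type 17 genes, 11 innate-like genes, 1 Ahr pathway gene, 3 clock genes and 3 family relatives lower. At 2-fold or more 393 were lower and 253 higher, with 1 innate-like gene. Scaled on the cre control 331 were lower and 7310 higher, with 2 type 17 and 0 innate-like genes (limma). Scaled on reference genes 563 were higher. Leaving out each array in turn gave 1098 to 1177 lower and 865 to 933 higher probe sets, 4 to 5 type 17 genes, 5 innate-like genes and 5 of the 9 genes described. Deviations of same-numbered arrays correlated at 0.23, -0.02 and 0.16. With 3 arrays per genotype these values cannot decide whether the numbers pair the samples. The replicate block gave 1154 lower and 877 higher probe sets and changed no count of a list. Of 258 alternative log2 fold changes of the 20 probe sets, 231 moved by less than the larger SD, 10 changed sign, all on uncalled probe sets, and 6 changed their call, all under a scaling. Under the cre scale these were the dimmer probe sets of Kcnk1 (-0.57) and Serpinb1a, Sox13 (-0.55), the second Rora probe set (0.68) and Ahr (0.82). Under the reference scale it was a dimmer Sox4 probe set (-0.61). That Serpinb1a probe set was no brighter than the bacterial controls on any array, so no fold is given for it. Signal close to that of the bacterial controls limits what the arrays show of Il17a. The cause of these shifts was not tested.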

Other observations

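Probe sets of 1 gene differed in direction for several genes of the lists, chosen here after their values were seen. Id2, which encodes an inhibitor of E proteins needed by innate lymphoid cells, had log2 fold changes of 0.33 (SE 0.09, limma adjusted p = 0.0267) on its brightest probe set over the 6 arrays, -0.27 (SE 0.05, adjusted p = 0.00487) on the next and -1.09 (SE 0.13, adjusted p = 0.000784) on the dimmest. Runx1, a partner of RORgt, had 5 probe sets with log2 fold changes from -0.99 (SE 0.08, adjusted p = 0.000191) to 0.43 (SE 0.07, adjusted p = 0.00287). Il17re, a chain of the IL-17C receptor, was lower on both of its probe sets, by -0.41 (SE 0.09, adjusted p = 0.0105) and -1.60 (SE 0.08, adjusted p = 2.72e-05), and the second of these was the brighter on the WT arrays. Which transcripts these probe sets match was not analysed here.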
